A study of Mus musculus with 45 samples.

Results

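The genes described here encode the proteins of oxidative phosphorylation (OXPHOS) and were followed in mouse ES cells (ESCs) and in the embryoid bodies (EBs) they form, with and without the signal transducers Smad2 and Smad3. Members were taken by symbol, as genes beginning with Nduf, Sdh (a to d), Uqcr, Cox4i, Cox5, Cox6, Cox7, Cox8 or Atp5. Of 87 such genes on the array, 77 had a probe detected (detection p under 0.01) on at least 3 of 45 arrays, and these were tested among 9666 genes in all. Each gene is given by its probe of highest mean signal, as a log2 level after background correction and quantile normalization. RNA was profiled on Illumina MouseWG-6 v2 arrays at 3 stages from cells without Smad2 and Smad3 (Smad2/3 DKO), without Smad2 alone (Smad2 KO) or Smad3 alone (Smad3 KO), and from WT cells. These were feeder-free ESCs grown with serum and LIF, and EBs made without LIF from 100 ESCs each and taken on day 2 (d2) or day 3 (d3), all of strain 129/Sv//Ev. Each group held 4 arrays apart from 3 in each knockout ESC group, and the arrays of a group came from separate lines or clones. The Smad3 KO clones share CCE, a WT line, as parent, and the Smad2/3 DKO clones share KT15, a Smad2 KO clone. The p-values therefore set a difference between group means against the spread between lines or clones, pooled over the groups of a fit. In these 2 genotypes the clones are related.

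Oxidative phosphorylation passes electrons from NADH and succinate through complexes I, II, III and IV of the inner mitochondrial membrane to oxygen, and complex V, the ATP synthase, uses the resulting proton gradient to make ATP. Most subunits are encoded in the nucleus, while a small core is encoded by mitochondrial DNA, so both genomes must supply parts of the same complexes. Mouse ESCs respire, and the balance between respiration and glycolysis is known to shift as pluripotent cells leave the naive state.

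Between 11338 and 14256 of 45281 probes were detected per array, and median signal ran between 111 and 243. The labels went against the data in 4 libraries, ESC Smad3 KO replicate 4, d2 Smad2 KO replicate 4, d3 Smad2 KO replicate 4 and d2 Smad2/3 DKO replicate 4, by the detection of Smad3 in 3 and by the side of the first principal component on which their stage lay in 3. These are called the doubted libraries and were kept as labelled. Counts of called OXPHOS genes that moved without them are given both ways. Group means, counts at an unadjusted p, counts of groups without overlap and interval counts include them. Apart from the doubted libraries, Smad3 was at most 5.62 in Smad3 KO and Smad2/3 DKO arrays, against 7.67 to 9.83 in WT arrays. The Smad2 probe read 8.37 to 9.75 on all arrays and therefore gave no check of the Smad2 labels. EB number was confounded with genotype, since 5000 EBs were collected for d3 Smad2/3 DKO and d3 Smad2 KO samples, against 1250 for d3 WT samples, and the effects of both cannot be told apart. All knockout groups of a stage were set against the same WT arrays. In such bulk samples fewer cells of a type and less RNA per cell cannot be told apart.

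The tested genes covered every complex. They comprised 5 core and 28 accessory subunits of complex I with 7 of its assembly factors, 3 subunits of complex II, 6 of complex III, 12 of complex IV and 16 of complex V. Ndufa4, named after complex I, is now known as a complex IV protein and was counted there, and Ndufs5-ps is the symbol of a pseudogene. Of the 77 genes, 66 were detected on all 45 arrays. The probes of 48 genes had a mean log2 level of at least 12, those of 15 lay between 9 and 12, and those of 14 lay below 9, where background takes a larger part of the signal. The 14 dim probes stand for Atp5a1, Atp5e, Atp5k, Atp5md, Cox7a2, Cox7b, Ndufaf2, Ndufaf3, Ndufb10, Ndufb11, Ndufb4, Ndufb5, Ndufb9 and Sdhd. Among the 10 genes that did not pass, Cox6a2, the heart and skeletal muscle form of a complex IV subunit, was detected on 2 arrays. The others were detected on 0 arrays and comprised the tissue-restricted complex IV genes Cox4i2, Cox7b2, Cox8b and Cox8c, the assembly factor Ndufaf6 and probes for Ndufb2, Ndufs1, Sdha and Uqcrfs1. The last 4 encode parts that every respiring cell uses, so an undetected probe here does not show that the transcript is absent. Atp5g1, Cox8a and Ndufa4l2 were not analysed here.

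**Figure D1:**
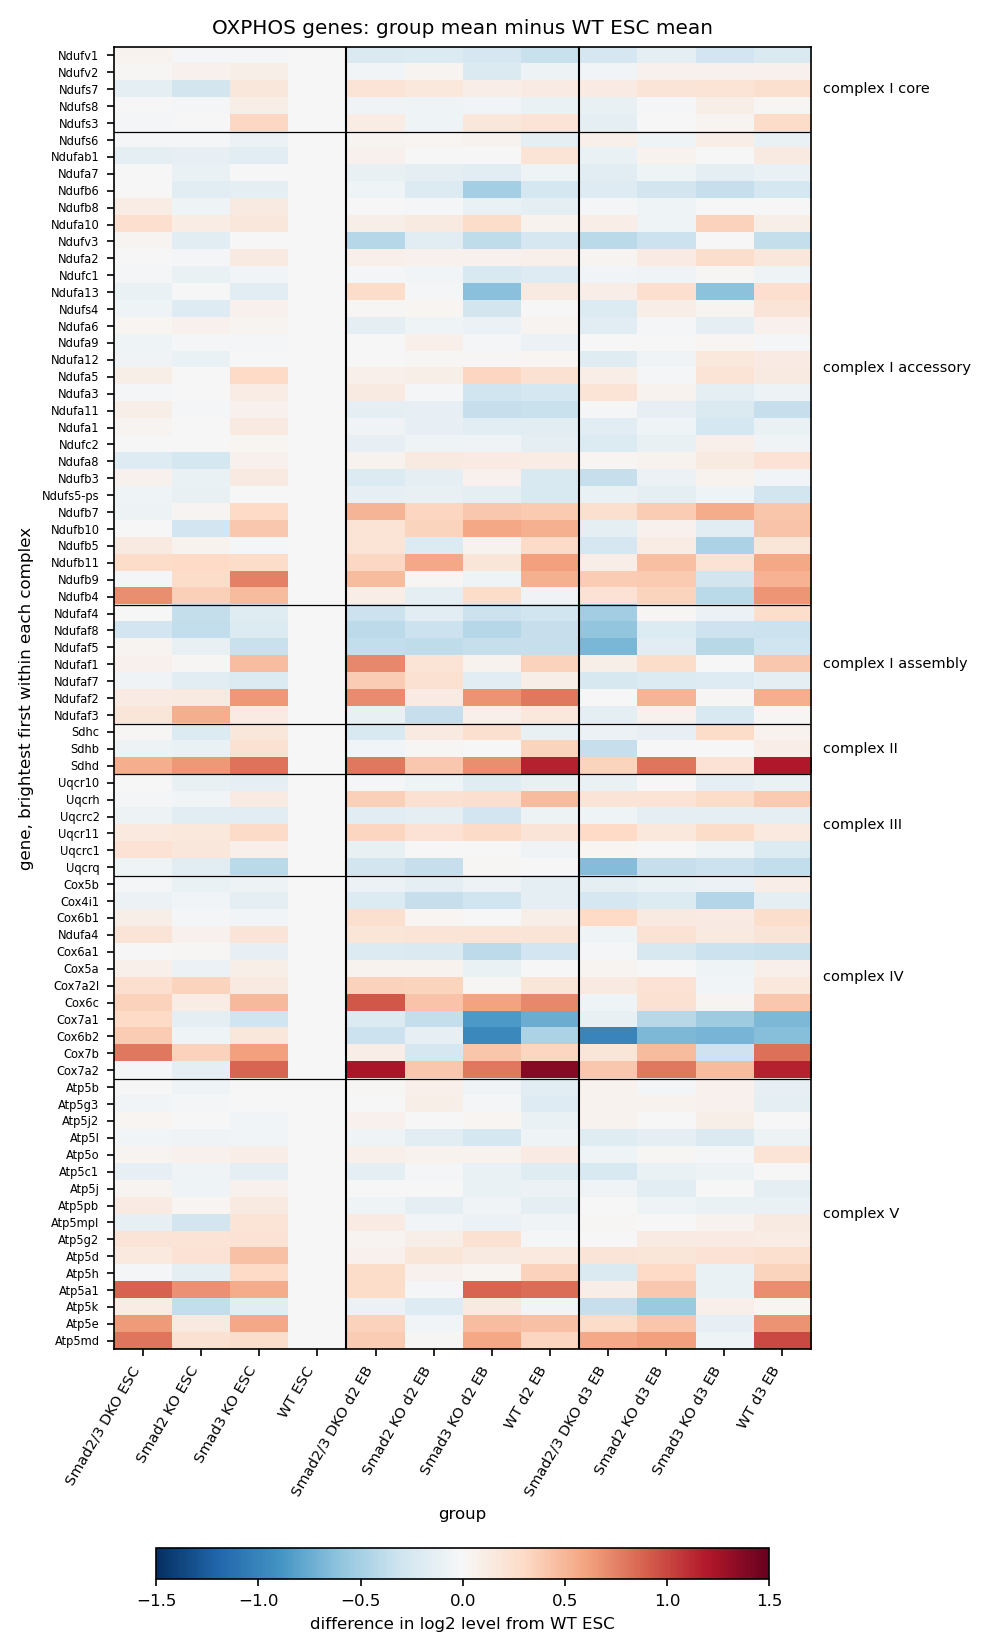
Log2 level of each of the 77 OXPHOS genes (rows, ordered by complex) in the 12 groups (columns), as the difference of the group mean from the WT ESC mean, with blue lower and red higher. Most rows are pale in every column, and the median range of group means is 0.44.

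OXPHOS transcripts differed little across the 12 groups. The range of the group means, from lowest to highest, had a median of 0.44 on the log2 scale over the 77 genes, beside 0.96 over all genes tested. It was over 1 for 8 OXPHOS genes (10.4%), beside 4616 of all genes (47.8%). Since bright probes vary less, the same was read among probes with a mean of at least 12. There the median range was 0.31 over 48 OXPHOS genes and 0.47 over all 971 genes, and it was over 1 for 0 and 114 of them. A test for any difference among the 12 groups (limma, adjusted p under 0.05) called 12 of the 77 genes (15.6%), beside a background of 58.1% of all genes. Without the doubted libraries it called 17 of the 77.

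The precision was enough to bound the change in signal of most of the bright genes. How closely signal follows transcript amount on the brightest probes was not tested. In d3 WT EBs against WT ESCs the 95% interval of the log2 change lay within 1.5-fold either way for 41 of 48 bright OXPHOS genes (85.4%), beside 59.4% of all 971 bright genes. In d2 WT EBs against WT ESCs this held for 41 of 48, beside 61.9%. In d3 Smad2/3 DKO against d3 WT EBs it again held for 41 of 48, beside 64.5%, and in d3 Smad2 KO against d3 WT EBs for 48 of 48, beside 73.9%. The d3 Smad2 KO group includes a doubted library, and the count without it is not given here. The largest change of a bright OXPHOS gene between d3 WT EBs and WT ESCs was 0.39.

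**Figure D2:**
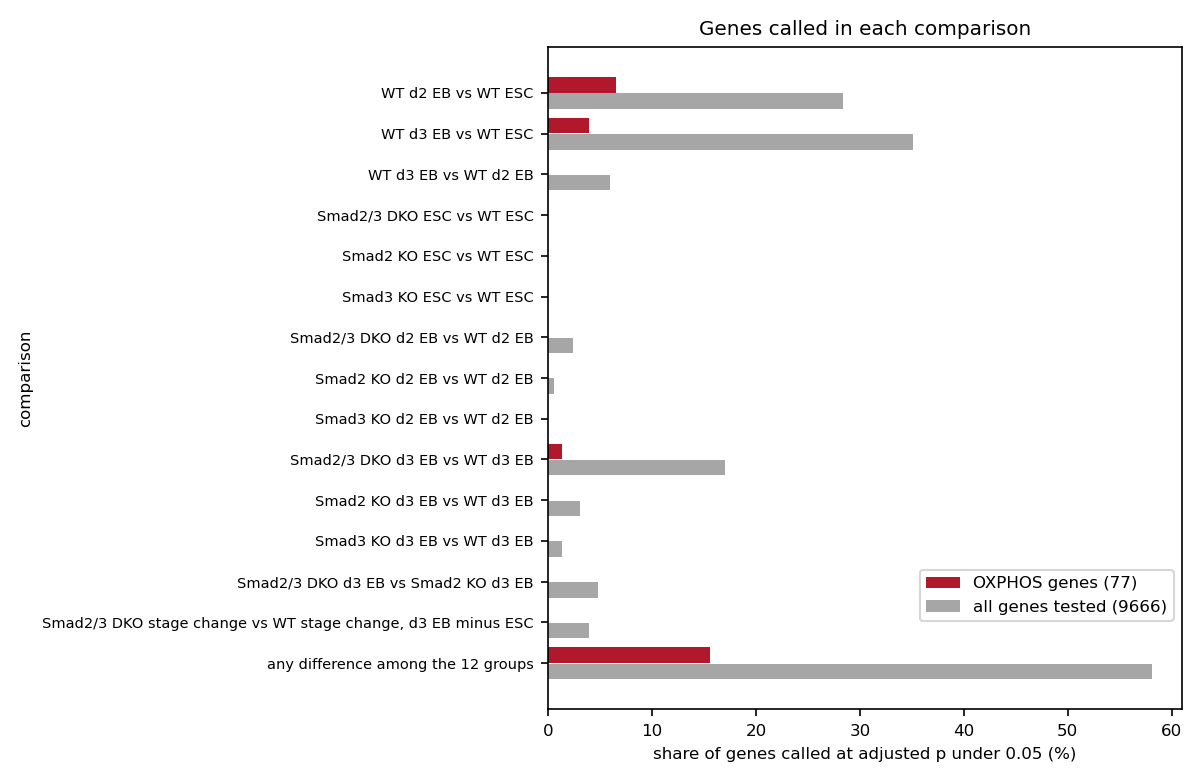
Percent of genes called at adjusted p under 0.05 (x axis) in each comparison (rows), for the 77 OXPHOS genes (red) and for all 9666 genes tested (grey). OXPHOS genes reached 6.49% in d2 WT EBs against WT ESCs, beside 28.4% of all genes, and 15.6%, beside 58.1%, in the test over all 12 groups.

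Promoters are shown for Ndufaf4, Cox7a1 and Uqcrh, 3 genes on bright or middle probes that are described below. The windows run from 250 bases before to 50 bases after the gene start and are from RefSeq (GRCm38.p6), which held 67 of the 77 genes. Capitals mark CGCATGCG, a palindrome at the core of sites bound by NRF1 (in Ndufaf4, beginning 112 bases before the start), CCAAT or its complement ATTGG (137 and 74 bases before the start in Cox7a1, 52 bases before in Uqcrh), and ACTTCCGG, the complement of the Ets-type motif CCGGAAGT (11 bases before the start in Uqcrh).
Ndufaf4, chr4:24897833-24898132, plus strand: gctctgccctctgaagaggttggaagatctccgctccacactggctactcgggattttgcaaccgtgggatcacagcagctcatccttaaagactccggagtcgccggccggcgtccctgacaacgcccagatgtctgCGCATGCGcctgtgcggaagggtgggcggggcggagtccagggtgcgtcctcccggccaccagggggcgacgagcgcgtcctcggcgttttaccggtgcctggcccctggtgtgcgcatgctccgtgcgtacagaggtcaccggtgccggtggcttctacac
Cox7a1, chr7:30183921-30184220, plus strand: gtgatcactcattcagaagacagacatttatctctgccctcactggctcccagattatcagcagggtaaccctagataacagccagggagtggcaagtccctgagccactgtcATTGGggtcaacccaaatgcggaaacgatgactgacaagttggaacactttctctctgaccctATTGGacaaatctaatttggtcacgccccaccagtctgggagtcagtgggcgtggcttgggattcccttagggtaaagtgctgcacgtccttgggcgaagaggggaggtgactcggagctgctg
Uqcrh, chr4:116075021-116075320, minus strand: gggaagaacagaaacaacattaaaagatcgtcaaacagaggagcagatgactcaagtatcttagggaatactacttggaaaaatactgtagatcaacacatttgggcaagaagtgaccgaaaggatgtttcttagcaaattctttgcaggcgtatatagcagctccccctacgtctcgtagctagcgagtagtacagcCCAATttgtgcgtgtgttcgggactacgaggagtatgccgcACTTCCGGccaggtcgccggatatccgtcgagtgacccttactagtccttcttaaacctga
Both strands were searched for 4 motifs, none of which overlapped another in these 3 windows. CGCATGCG stood in 11 OXPHOS windows (16.4%), among them those of Ndufaf4, Ndufaf5, Ndufa11, Cox6a1 and Uqcrc1, beside 2.07% of 27025 genes with windows of the same length. AAGATGGCG, bound by YY1, stood in 8 (11.9%), among them those of Ndufs4, Ndufs6 and Ndufs7, beside 1.64%. CCGGAAGT stood in 4 (5.97%), beside 4.31%, and CCAAT in 29 (43.3%), beside 41.1%. The 27025 genes include many without a tested probe, and shares among the tested genes alone are not given here. A match is a run of letters in the window and no measurement of binding.

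As WT cells left the ESC state, 5 OXPHOS genes changed by d2, 4 higher and 1 lower in d2 EBs than in ESCs. Over all genes 28.4% were called, 14.5% higher and 14% lower. Calls fell on 1 of 3 tested complex II genes, 1 of 6 of complex III and 3 of 12 of complex IV, while 0 of the 40 complex I genes and 0 of the 16 complex V genes passed the limma test. At an unadjusted p under 0.05, 11 OXPHOS genes passed, beside 39.6% of all genes. Groups did not overlap for 5 OXPHOS genes, beside 27.1% of all genes. The median log2 change was -0.02 for OXPHOS genes and 0.02 for all genes. Of the 48 bright OXPHOS genes 1 was called (2.08%), beside 13.8% of all bright genes. Of 26 other tested probes of OXPHOS genes 2 were called, and 20 of the 26 had the sign of the gene's main probe.

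Cox7a1 is a complex IV subunit best known from heart and skeletal muscle, and it was the OXPHOS gene that fell. Its log2 level was 9.77, 9.74, 9.85 and 9.93 in d2 WT EBs, against 10.93, 10.32, 10.61 and 10.37 in WT ESCs. Every d2 array lay below every ESC array. The log2 change was -0.73 (SE 0.15, 0.601-fold, limma adjusted p = 0.0033). On d3 the WT EBs read 9.97, 9.89, 9.77 and 9.93, again all below the ESCs, with a change of -0.67 (SE 0.15, adjusted p = 0.00439). The level was thus reached by d2 and the d3 arrays stayed inside or close to the d2 range. It kept its call in each of 8 fits that left out 1 array, on d2 and on d3. Under median scaling the d3 change was -0.46 with an adjusted p of 0.0921, and in a fit over all 12 groups its adjusted p was 0.0521. Of the marker genes of striated muscle, 2 of 5 had a tested probe.

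Cox7a2, the paralog that most tissues use, had a dim probe and was higher by d2. It read 6.91, 6.86, 8.24 and 8.19 in d2 WT EBs, against 6.06, 7.32, 5.38 and 6.02 in WT ESCs, where it was detected on 1 of 4 arrays. The groups overlapped through ESC replicate 2. The measured means were 7.55 in d2 WT EBs and 6.19 in WT ESCs (adjusted p = 0.0321), and 7.34 in d3 WT EBs (adjusted p = 0.0546 against ESCs). No fold is given, since 3 of 4 ESC arrays did not detect the probe.

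Sdhd encodes a membrane anchor of complex II, succinate dehydrogenase, and was also read by a dim probe. It was 6.38, 6.77, 6.83 and 6.87 in d2 WT EBs, against 5.21, 5.74, 5.49 and 5.76 in WT ESCs. All d2 arrays were above all ESC arrays, yet the probe was detected on 2 of 4 d2 arrays and on 0 of 4 ESC arrays, so no fold is given. The means were 6.71 in d2 EBs and 5.55 in ESCs (adjusted p = 0.00541). On d3 it read 6.26, 7.1, 7.41 and 6.22 in WT EBs (adjusted p = 0.00336 against ESCs), again above every ESC array.

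Cox6c, a small complex IV subunit, read 10.15, 10.53, 10.76 and 11.45 in d2 WT EBs, against 9.64, 10.08, 10.32 and 9.97 in WT ESCs. The ranges overlapped, with 3 of 4 d2 arrays above every ESC array. The change was 0.72 (SE 0.24, 1.65-fold, adjusted p = 0.0418). Uqcrh, the hinge protein of complex III, read 14.29, 13.66, 14.11 and 13.82 in d2 WT EBs, against 13.67, 13.5, 13.42 and 13.39 in WT ESCs. Here too 3 of 4 d2 arrays were above every ESC array. The change was 0.47 (SE 0.16, 1.39-fold, adjusted p = 0.044), and Uqcrh was the called gene with a bright probe.

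The calls of Cox6c, Cox7a2 and Uqcrh depended on which arrays were in the fit. Of 8 fits that left out 1 array, Cox6c was called in 2, Cox7a2 in 3, Uqcrh in 2 and Sdhd in 8. The count of called OXPHOS genes was 3 without WT ESC replicate 1, 3 or 4, 2 without d2 WT replicate 3 or 4, and 8 without d2 WT replicate 1. With the WT line as a block it was 3 (Cox6c, Cox7a1 and Sdhd).

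**Figure D3:**
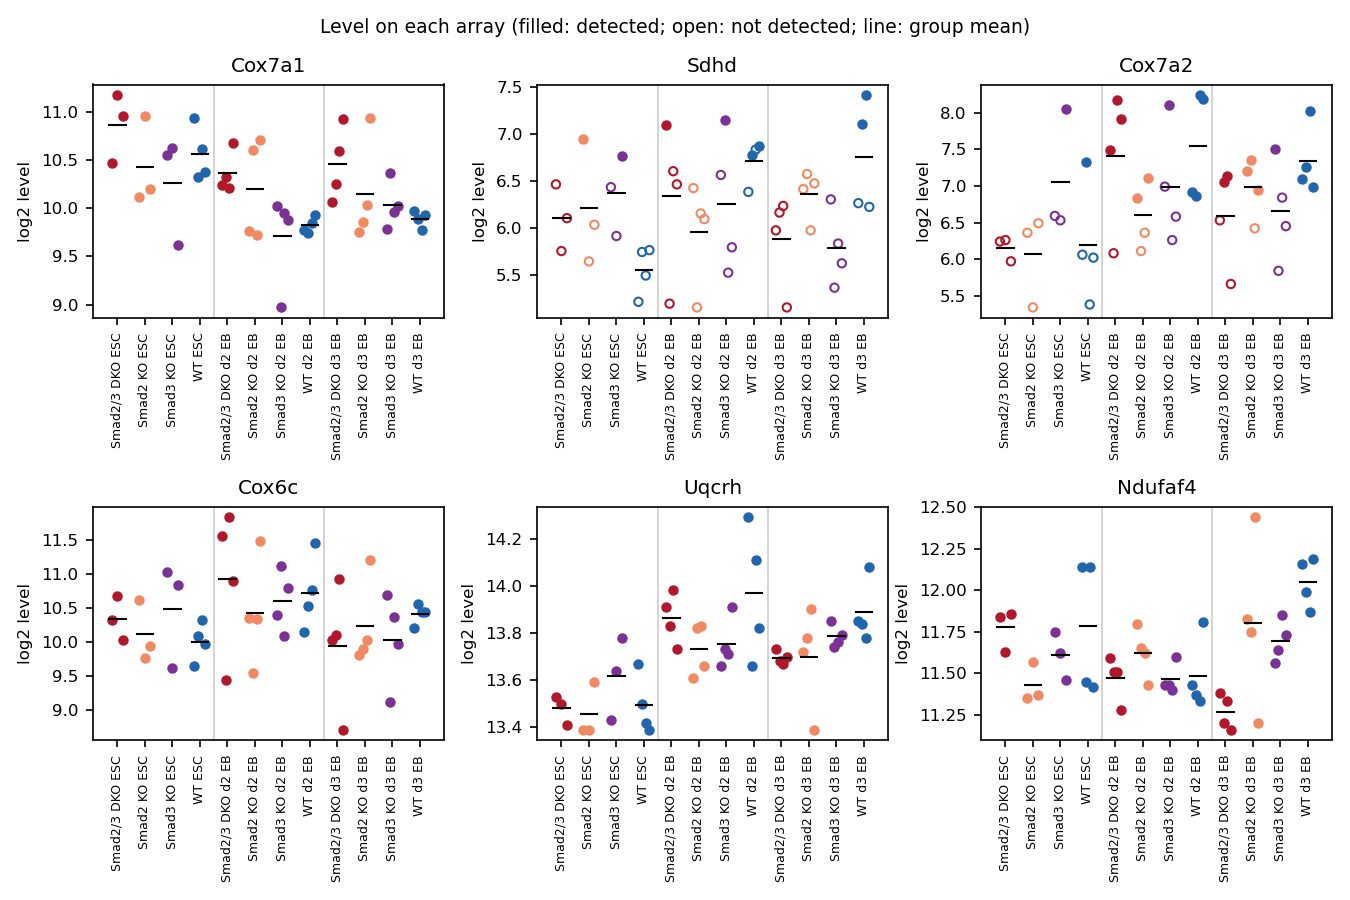
Log2 level on each array (y axis) of 6 named OXPHOS genes by stage and genotype (x axis), with filled points detected, open points not detected, and lines at group means. Cox7a1 lies lower in EBs than in ESCs of WT cells, Sdhd stands near background, and Ndufaf4 in d3 EBs lies at 11.16 to 11.38 in Smad2/3 DKO and at 11.87 to 12.19 in WT.

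By d3, 3 OXPHOS genes differed between WT EBs and WT ESCs, Sdhd and Atp5md higher and Cox7a1 lower. Over all genes 35.1% were called, 18.7% higher and 16.4% lower. Of 26 other tested probes of OXPHOS genes 4 were called, and 19 of the 26 had the sign of the gene's main probe. Atp5md encodes a small protein of the ATP synthase that takes part in its dimers. It read 6.61, 7.48, 7.09 and 6.27 in d3 WT EBs, against 5.29, 5.89, 6.41 and 5.91 in WT ESCs, where it was not well above background on any of 4 arrays. The groups overlapped, and the d3 mean was at least 1.02-fold higher, with measured means of 6.87 in d3 EBs and 5.88 in ESCs (adjusted p = 0.0215). It kept its call in 5 of 8 fits that left out 1 array. Without adjustment 12 OXPHOS genes had p under 0.05, beside 44.9% of all genes, and the groups of 5 did not overlap, beside 32.4%. The median change was 0.07, beside 0.02. The count was 6 without WT ESC replicate 2 and 5 without replicate 3 or 4. It was 10 when each array was scaled to the same median, which moved the median of all genes to 0.21, and 2 of the 3 genes above were among the 10.

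Between d2 and d3 no OXPHOS gene passed the limma test in WT EBs, beside 5.95% of all genes. At an unadjusted p under 0.05 3 did, beside 21.1%. Ndufb4 (adjusted p = 0.188) and Atp5md (adjusted p = 0.232) were each detected on 2 of 4 d3 and 0 of 4 d2 arrays. For Atp5md the d3 mean was at least 1.07-fold higher, by a bound that leaves out the spread between arrays. No fold is given for Ndufb4. Ndufaf4, a complex I assembly factor, had 12.16, 11.99, 11.87 and 12.19 in d3 WT EBs and a mean of 11.49 in d2 WT EBs. Its groups did not overlap, as for 14.8% of all genes, and the difference was 0.56 (adjusted p = 0.124). All 48 bright OXPHOS genes had a 95% interval within 1.5-fold in this comparison, beside 77% of all bright genes.

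Catalytic and central subunits were read as fixed examples of each complex. Ndufv1, the NADH-binding core subunit of complex I, had group means between 13.03 and 13.41. Its change in d2 WT EBs against WT ESCs was -0.33 (adjusted p = 0.0846), with no overlap between the groups. Cox5a of complex IV ran between 13.11 and 13.30, and Atp5b, the catalytic beta subunit of ATP synthase, between 14.01 and 14.26. Sdhb, the iron-sulphur subunit of complex II, ran between 9.79 and 10.46, a range of 0.67. Atp5a1, the alpha subunit, was read by a dim probe between 8.26 and 9.25, a range of 0.98. The last 2 ranges were wider than the median of 0.44 over OXPHOS genes. Its change in d3 WT EBs against WT ESCs was 0.70 by that probe (adjusted p = 0.135) and -0.10 by another tested probe (adjusted p = 0.839), so its direction is not settled.

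Among genes with paralogs, the broadly used form Cox7a2, on its dim probe, had group means between 6.06 and 7.55 and a range of 1.49 (adjusted p = 0.0709 over 12 groups). Those read by brighter probes ranged less. Group means lay between 13.64 and 14.08 for Cox4i1, between 13.47 and 13.88 for Cox6a1, between 13.73 and 14.07 for Cox6b1 and between 11.30 and 11.69 for Cox7a2l. They lay between 13.61 and 13.90 for Ndufa4, and between 12.23 and 12.48 for Atp5g2 and 13.90 and 14.18 for Atp5g3, which encode the same mature ring subunit of ATP synthase. None of these 7 genes on brighter probes passed the test over 12 groups. Cox6b2 and Cox7a1, whose protein products are known from testis and from striated muscle, did pass it.

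Cox6b2, the testis form of a complex IV subunit, had the largest range among the 12 genes that differed over all groups, 1.37 (adjusted p = 0.00219). In Smad2/3 DKO its mean was 10.03 ± 0.08 (SD, n = 3) in ESCs, 9.33 ± 0.53 (n = 4) in d2 EBs and 8.66 ± 0.59 (n = 4) in d3 EBs. In Smad2 KO the means were 9.58, 9.53 and 8.98, and in Smad3 KO 9.82, 8.68 and 8.95, in the same order of stages. In WT it was 9.65 ± 0.42 in ESCs, 9.17 ± 0.64 in d2 EBs and 9.01 ± 0.16 in d3 EBs (n = 4 each). The d3 mean was the lowest in Smad2/3 DKO, Smad2 KO and WT and the d2 mean in Smad3 KO, and the arrays of neighbouring stages overlapped in WT. The d2 and d3 Smad2 KO, ESC Smad3 KO and d2 Smad2/3 DKO means each include a doubted library. Means without these libraries are not given here. Ldhc, the testis gene with a tested probe among 5, gave 287 to 469 in linear units in WT ESCs.

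Cox7a1 showed the second largest range among these 12, 1.16 (adjusted p = 0.0192). Its ESC, d2 and d3 means were 10.86, 10.36 and 10.45 in Smad2/3 DKO, 10.42, 10.20 and 10.14 in Smad2 KO, 10.26, 9.70 and 10.03 in Smad3 KO, and 10.56, 9.82 and 9.89 in WT. The ESC mean was the highest of the 3 stages in each genotype. As for Cox6b2, the d2 and d3 Smad2 KO, ESC Smad3 KO and d2 Smad2/3 DKO means each include a doubted library. In d3 Smad2/3 DKO EBs Cox7a1 read 10.06, 10.25, 10.59 and 10.92, against 9.97, 9.89, 9.77 and 9.93 in d3 WT EBs. All d3 Smad2/3 DKO arrays were above all d3 WT arrays, while the difference of 0.56 (SE 0.24) had an adjusted p of 0.136. In d2 EBs it read 10.24, 10.32, 10.21 and 10.67 in Smad2/3 DKO, the last a doubted library, with a difference from WT of 0.53 (adjusted p = 0.395). The parent clone KT15, which still has Smad3, read 10.6 on d2 and 9.86 on d3.

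The other 10 genes that passed the test over 12 groups had ranges between 0.43 and 0.91. They were the complex I genes Ndufs7, Ndufa3, Ndufa11, Ndufa13 and Ndufv3, the complex I assembly factors Ndufaf4 and Ndufaf5, Uqcrh and Uqcrc1 of complex III, and Atp5mpl of complex V. Ndufa3, an accessory subunit, had means of 12.88 ± 0.11 in d2 Smad2/3 DKO EBs and 12.48 ± 0.12 in d2 WT EBs, and of 12.95 ± 0.06 in d3 Smad2/3 DKO EBs and 12.66 ± 0.13 in d3 WT EBs (SD, n = 4 each). Neither stage overlapped, and the adjusted p was 0.132 on d2 and 0.128 on d3. Ndufs7, an iron-sulphur core subunit, had its lowest means in Smad2 KO ESCs (11.81 ± 0.18, n = 3) and Smad2/3 DKO ESCs (11.93 ± 0.08, n = 3), beside 12.08 ± 0.16 (n = 4) in WT ESCs. Its means in EBs lay between 12.18 and 12.32. When each array was scaled to the same median, 6 OXPHOS genes passed the test over 12 groups, beside 45.6% of all genes, and 3 of them were among the 12.

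In ESCs no OXPHOS gene was called in any knockout, beside 0% of all genes in each of the 3 comparisons with WT. At an unadjusted p under 0.05 1 OXPHOS gene passed in Smad2/3 DKO (3.33% of all genes), 2 in Smad2 KO (7.9%) and 5 in Smad3 KO (6.23%). The arrays of a knockout and of WT did not overlap for 4 OXPHOS genes in Smad2/3 DKO (6.22% of all genes), 2 in Smad2 KO (8.65%) and 4 in Smad3 KO (4.98%). The intervals were within 1.5-fold of WT for 45, 42 and 43 of the 48 bright genes in Smad2/3 DKO, Smad2 KO and Smad3 KO. Several of the larger differences from WT fell on dim probes near background, for which no fold is given. Atp5md was detected on 0 of 3 Smad2/3 DKO and 0 of 4 WT ESC arrays, and Sdhd on 1 of 3 Smad2 KO and 0 of 4 WT arrays. Cox7a2 was detected on 1 of 3 Smad3 KO arrays, which was the doubted library, and on 1 of 4 WT arrays.

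In d2 EBs no OXPHOS gene was called in any knockout either, beside 2.41% of all genes in Smad2/3 DKO, 0.559% in Smad2 KO and 0.0207% in Smad3 KO. At an unadjusted p under 0.05 the counts were 1, 0 and 1, beside 14.4%, 12% and 8.92%. Groups did not overlap for 2 OXPHOS genes in Smad2/3 DKO (11% of all genes), 1 in Smad2 KO (7.68%) and 1 in Smad3 KO (7.65%). The single gene at an unadjusted p under 0.05 in Smad2/3 DKO was Ndufa3. With 12 group means fitted over all arrays, Ndufa3 was called (adjusted p = 0.0364).

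In d3 EBs lacking both Smads 1 OXPHOS gene was called by its probe of highest mean, Ndufaf4, which was lower than in WT. Over all genes 17% were called, 9.5% higher and 7.51% lower. Of 26 other tested probes of OXPHOS genes 3 were called, and 14 of the 26 had the sign of the gene's main probe. Ndufaf4 read 11.38, 11.2, 11.33 and 11.16 in d3 Smad2/3 DKO EBs, against 12.16, 11.99, 11.87 and 12.19 in d3 WT EBs. The lowest WT array lay above the highest Smad2/3 DKO array by more than the range within either group. The change was -0.78 (SE 0.2, 95% interval -1.21 to -0.36, 0.581-fold, adjusted p = 0.015). It was called in 8 of 8 fits that left out 1 array. Another tested probe of the gene gave -0.62 with an adjusted p of 0.181, and without arrays whose brightest probe was over 30000 the adjusted p was 0.0501 at a change of -0.75.

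In the single knockouts on d3, Ndufaf4 read 11.83, 11.75, 12.44 and 11.2 in Smad2 KO, the last on a doubted library, and 11.56, 11.64, 11.85 and 11.73 in Smad3 KO. The Smad3 KO arrays all lay below the WT arrays, at an adjusted p of 0.34. Of the Smad2 KO arrays, replicate 3 lay above every WT array. Replicates 1 and 2 and the doubted library lay below every WT array. Against Smad2 KO the Smad2/3 DKO level was lower by a log2 change of -0.54 (adjusted p = 0.152), and by -0.74 (adjusted p = 0.014) without the doubted library. At d2 the Smad2/3 DKO change against WT was -0.02 (SE 0.14). The change between ESCs and d3 EBs in Smad2/3 DKO was -0.77 relative to that in WT (SE 0.25, adjusted p = 0.0877).

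Between d3 Smad2/3 DKO and d3 WT EBs the log2 change was below 0 for 58 of 77 OXPHOS genes, beside 52.8% of all genes, with a median of -0.14, beside -0.03. Among the 48 bright genes it was below 0 for 31 (64.6%), beside 57.2% of all bright genes, and among the 29 on dim or middle probes for 27. The single knockouts gave 50 of 77 below 0 each on d3, beside 53.2% of all genes in Smad2 KO and 48.6% in Smad3 KO. The d3 Smad2/3 DKO group held the array with the lowest mean over the dim genes (replicate 4, 6.12), whose part in these counts was not tested. Groups did not overlap for 12 OXPHOS genes, beside 27.1% of all genes. Below WT on every array were Atp5h, Atp5o, Cox5b, Ndufaf4, Ndufs3, Ndufs4 and Uqcrh, and above it Atp5b, Cox6a1, Cox7a1, Ndufa3 and Uqcrc1. Without adjustment 10 OXPHOS genes had p under 0.05, beside 30.7% of all genes. The changes closest to the threshold were those of Sdhd (adjusted p = 0.0657), and -0.40 for Ndufs4 (0.0759) and -0.42 for Ndufs3 (0.0869). Sdhd was detected on 0 of 4 Smad2/3 DKO and 2 of 4 WT arrays. Its mean was at least 1.02-fold higher in WT, by a bound that leaves out the spread between arrays. By complex the median was -0.12 for core and -0.13 for accessory subunits of complex I, -0.31 for its assembly factors, -0.44 for complex II, 0.03 for complex III, -0.18 for complex IV and -0.11 for complex V. Without d3 WT replicate 1 or 4 Sdhd was called as well, giving 2 genes, and without the doubted libraries Cox7a1 was. That setting removes only Smad2 KO replicate 4 from the d3 fit, and no array of the 2 groups compared.

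Cell identity and EB number differed in the same comparison. Primitive streak and mesoderm markers were lower for 6 of 6 tested genes, with a summed linear level of 208 to 225 in d3 Smad2/3 DKO EBs, against 8088 to 32989 in d3 WT EBs. None of the 6, Eomes, Fgf8, Gsc, Lhx1, Mesp1 and Mixl1, was detected in the d3 Smad2/3 DKO arrays. Trophectoderm markers were higher for 6 of 7 genes, with sums of 29326 to 39619 in d3 Smad2/3 DKO EBs, against 2333 to 9809 in d3 WT EBs. Their part in the OXPHOS values was not tested. In WT EBs against WT ESCs, 6 of 8 pluripotency markers were lower on d2 and 6 of 8 on d3, and 6 of 6 streak markers were higher on d3.

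In d3 single knockouts no OXPHOS gene was called, beside 3.03% of all genes in Smad2 KO and 1.31% in Smad3 KO. Without adjustment 1 OXPHOS gene had p under 0.05 in Smad2 KO and 7 in Smad3 KO, beside 16.8% and 19.5%. In d3 Smad2 KO EBs the groups did not overlap with WT for 2 OXPHOS genes, beside 10.8% of all genes. In d3 Smad3 KO EBs they did not overlap for 9 OXPHOS genes, beside 12.3% of all genes, with Atp5b and Ndufs6 above WT and 7 genes below it. The largest fitted changes were on dim probes. Cox7b, detected on 2 of 4 Smad3 KO and 4 of 4 WT arrays, gave -1.14 (adjusted p = 0.268). Ndufb4 (adjusted p = 0.0833), Atp5md (0.137) and Sdhd (0.103) were detected on 0 of 4 Smad3 KO and 2 of 4 WT arrays, and no fold is given for them. Between d3 Smad2/3 DKO and d3 Smad2 KO EBs no OXPHOS gene was called, beside 4.83% of all genes, and 3 passed an unadjusted p under 0.05, beside 19.5%. Their groups did not overlap for 2 OXPHOS genes, beside 10.6%. In the comparison of stage changes between Smad2/3 DKO and WT 0 were called, beside 3.96% of all genes, and 5 passed an unadjusted p under 0.05, beside 16.5%.

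Ndufa13, an accessory subunit of complex I also known as Grim19, differed between the Smad3 KO clones, and its clones are described because of the values seen. The clone CCE.2H2 read 12.02 on d2 and 12.02 on d3. The clone CCE.1H1 read 12.41 in ESCs, 12.23 on d2 and 12.3 on d3, and CCE.2B7 read 12.44 on d2 and 12.31 on d3, with 13.42 on its doubted ESC library. The clone CCE.2E7 read 12.92, 13.1 and 13.27, inside the WT range of 12.8 to 13.61. Apart from the doubted library, 3 of 4 Smad3 KO clones held the low level at each stage measured. As a group, Smad3 KO differed from WT by -0.76 on d2 (adjusted p = 0.461) and by -0.85 on d3 (SE 0.23, adjusted p = 0.0679). Leaving out the doubted libraries removes no d3 Smad3 KO or d3 WT array, only Smad2 KO replicate 4 from the shared d3 fit. Ndufa13 was called on d3 in that fit, the 1 gene then called.

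Cilp2, which lies 2 protein-coding genes from Ndufa13 on the same chromosome in RefSeq, read higher in the clones with low Ndufa13 and was chosen for that. It read 7.84 on d2 and 7.5 on d3 in CCE.2H2, 6.75, 7.11 and 6.6 in ESCs, d2 and d3 in CCE.1H1, and 7.61 and 7.24 on d2 and d3 in CCE.2B7, whose doubted ESC library read 5.98. It was 5.34, 6.04 and 5.41 in CCE.2E7 and 5.1 to 6.47 in WT, where it was not detected on any array. Cilp2 was detected on 2 of 4 Smad3 KO arrays on d2 and on 2 of 4 on d3. On d2 the Smad3 KO mean was at least 1.31-fold higher than the WT mean, by a bound that leaves out the spread between clones. The difference did not pass the limma test (adjusted p = 0.439). On d3 the means were 6.69 in Smad3 KO and 5.28 in WT (adjusted p = 0.0553) with no fold given. Another 12 neighbours within 12 genes of Ndufa13 had tested probes, and 0 of them were called by limma at any stage. Without adjustment 1 had p under 0.05 in ESCs, 1 on d2 and 2 on d3. The 2 on d3 were Hapln4 (1.12, adjusted p = 0.108), higher in Smad3 KO, and Zfp866 (-0.65, adjusted p = 0.124), lower and not detected on any d3 Smad3 KO array. All Smad3 KO clones came from the same WT line, and what distinguishes them at this locus was not tested.

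**Figure D4:**
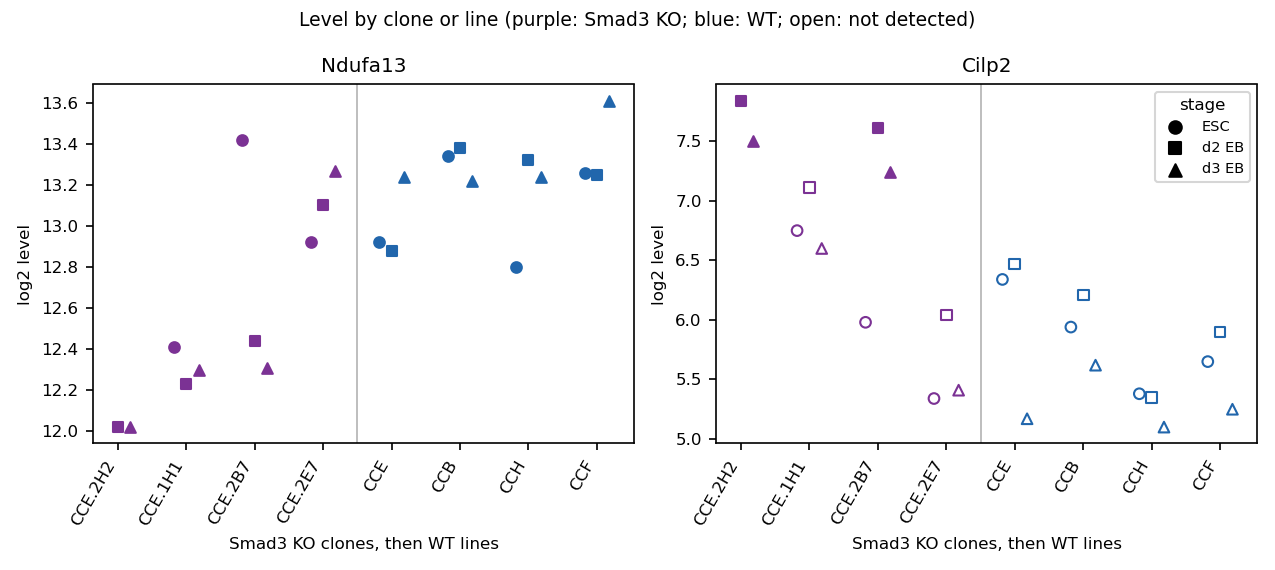
Log2 level (y axis) of Ndufa13 and of its neighbour Cilp2 by clone or line (x axis), Smad3 KO clones in purple on the left and WT lines in blue. In CCE.2H2, CCE.1H1 and CCE.2B7 Ndufa13 lies at 12.02 to 12.44 and Cilp2 above its WT range of 5.1 to 6.47 on all but the doubted ESC library of CCE.2B7, while CCE.2E7 stands with WT.

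The dim OXPHOS probes moved together between arrays of the same group. A score per array, the first component of the group-centred values of 16793 probes outside OXPHOS over 41 arrays without the doubted ones, held 20.9% of the residual variance. The mean level of the 14 dim OXPHOS genes correlated with it at r = -0.95 over these 41 arrays, and that of the other 63 genes at r = -0.05. Single genes among these 63 went both ways, so their mean does not show that they were free of the score. Ndufa1 gave -0.79 and Atp5d -0.75, while Atp5c1 and Uqcrc2 gave 0.7 each. The dim mean ran between 6.12 and 7.96 over arrays and the other mean between 12.44 and 12.68. Individual values were -0.90 for Atp5a1, -0.89 for Ndufb9, -0.87 for Sdhd, -0.83 for Cox6c and -0.82 for Cox7a2, beside 0.17 for Uqcrh, 0.23 for Ndufaf4 and 0.69 for Cox7a1. In all 18 OXPHOS genes lay below -0.6, 11 of them dim. These points share arrays and their overall signal, so the correlations are a description.

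The arrays with the lowest dim mean also had very bright top probes. The dim mean and the signal of the brightest probe were 6.12 and 37350 in d3 Smad2/3 DKO replicate 4, 6.20 and 32825 in d2 Smad2/3 DKO replicate 2, 6.22 and 38580 in d2 Smad2 KO replicate 2, 6.21 and 36756 in d3 Smad3 KO replicate 2, and 6.43 and 30405 in WT ESC replicate 1. A sixth array over 30000, ESC Smad2/3 DKO replicate 2, had a dim mean of 7.24. Without these 6 arrays Cox7a1, Sdhd and Uqcrh remained called in d2 WT EBs against WT ESCs, while Cox6c (0.60, adjusted p = 0.111) and Cox7a2 (1.31, adjusted p = 0.069) did not pass.

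Transcripts of mitochondrial DNA, added after their values were seen, showed the same array dependence in part. ATP6, a complex V subunit, ran between 7.85 and 12.64 over arrays (r = -0.82 with the score), COX2 of complex IV between 7.98 and 12.08 (r = -0.80) and ND1 of complex I between 10.76 and 13.38 (r = -0.85). CYTB of complex III stayed between 13.69 and 14.25 (r = -0.24). Their levels were not compared between groups.

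**Figure D5:**
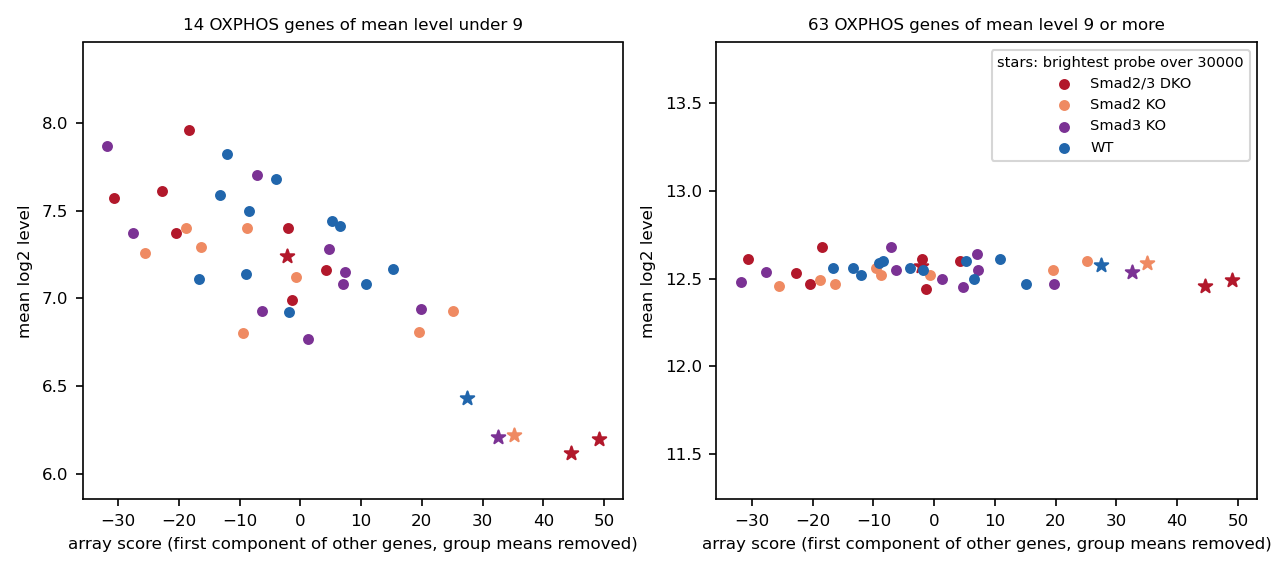
Mean log2 level of the 14 dim OXPHOS genes (left) and of the other 63 (right) on each array (y axes) against the array score (x axes, no unit), with stars for arrays whose brightest probe exceeded 30000. The dim mean falls along the score (r = -0.95) while the other mean stays between 12.44 and 12.68.

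Genes that work beside the complexes were read from lists chosen by function. Cycs, cytochrome c, which carries electrons between complexes III and IV, was higher in WT EBs than in WT ESCs by 0.44 on d2 (SE 0.15, adjusted p = 0.0413) and by 0.50 on d3 (adjusted p = 0.0197). In d3 Smad2/3 DKO EBs it averaged 12.53 ± 0.09, against 13.08 ± 0.16 in d3 WT EBs (SD, n = 4 each), a change of -0.55 (adjusted p = 0.0189). Etfb, a subunit of the flavoprotein that brings electrons from fatty acid oxidation, went the other way. It changed by -1.20 on d2 (adjusted p = 0.000314) and by -1.05 on d3 (adjusted p = 0.000579) in WT EBs against WT ESCs. It averaged 12.68 ± 0.21 in d3 Smad2/3 DKO EBs, against 12.01 ± 0.19 in d3 WT EBs, a change of 0.67 (adjusted p = 0.0244). Since the same d3 WT arrays stand in both comparisons, the opposite signs are not independent.

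Among regulators of mitochondrial biogenesis, 2 of 14 tested were higher and 3 lower in d2 WT EBs than in WT ESCs, beside 14.5% higher and 14% lower of all genes. Those higher were Tfb1m, which methylates mitochondrial ribosomal RNA (0.90, adjusted p = 0.0148), and Polg2, a subunit of the mitochondrial DNA polymerase (0.89, adjusted p = 0.0386). Those lower were Nrf1 (-0.52, adjusted p = 0.0333), Esrra (-0.56, adjusted p = 0.00645) and Esrrb (-4.32, adjusted p = 6.3e-05), a nuclear receptor that is also a naive pluripotency gene. Gabpa, an Ets factor of OXPHOS promoters, gave -0.13 (adjusted p = 0.708).

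In d3 Smad2/3 DKO EBs 4 of the 14 regulators were lower than in d3 WT EBs and 1 was higher, beside 7.51% lower and 9.5% higher of all genes. Ppargc1b, a coactivator of mitochondrial genes, averaged 7.28 ± 0.53 in Smad2/3 DKO and 9.02 ± 0.32 in WT (SD, n = 4 each), a change of -1.74 (SE 0.26, adjusted p = 0.00045). Tfam, which packages and transcribes mitochondrial DNA, averaged 9.78 ± 0.31 in Smad2/3 DKO and 10.48 ± 0.09 in WT (-0.70, adjusted p = 0.0122). Polg2 gave -0.77 (adjusted p = 0.0294) and Twnk, the mitochondrial helicase, -0.58 (adjusted p = 0.0462), while Esrrb gave 3.47 (adjusted p = 0.00178). Nrf1 gave 0.01 and Gabpa -0.01.

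The other lists gave counts as follows for d2 WT EBs against WT ESCs, where 28.4% of all genes were called. Of 23 assembly factors of the complexes outside the symbol rule 0 were called, and of 13 citric acid cycle genes 2 were higher and 2 lower. Of 72 mitochondrial ribosomal proteins 7 were higher and 3 lower, and of 55 cytosolic ribosomal proteins 1 was higher and 1 lower. Of 13 glycolysis genes 1 was higher and 2 lower. In d3 Smad2/3 DKO against d3 WT EBs, where 17% of all genes were called, the counts were 1 higher and 0 lower of 23 assembly factors, 0 and 2 of 13 citric acid cycle genes, 2 and 3 of 72 mitochondrial ribosomal proteins, 1 and 2 of 55 cytosolic ribosomal proteins, and 2 and 0 of 13 glycolysis genes.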

How the data were processed

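Arrays were of MouseWG-6 v2 type. Per the labels and methods, the authors read bead signal in GenomeStudio 2009.2. Their deposited intensity is linear, was not background-subtracted and starts at 82.0, and each deposited detection p-value ranks it among the negative control probes. A second deposited matrix of normalized log2 values (column medians 5.66), whose settings are not given in the sources used here, served as an alternative. The authors dropped 3 outlying ESC arrays before deposit, and these are not analysed here. Per-sample columns left unused numbered 0.

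Signal was corrected and quantile-normalized by neqc (offset 16) in limma 3.58.1 (R 4.3.3, data.table version 1.17.8). Of 45281 probes, 34885 carried a single symbol, 18 several and 10378 none, and symbols were checked through RefSeq with 0 updated. Probes with detection p under 0.01 on at least 3 arrays (16896) were fitted with lmFit and eBayes by stage, on the 12 WT arrays for WT stages, and on all 45 arrays for the test over groups and the comparison of stage changes. P-values were adjusted by Benjamini and Hochberg over all probes, and a gene was called under 0.05. Intervals are 95%. The number of arrays and, for dim probes, the signal over background limit the precision. Figures were drawn with matplotlib 3.10.9 in Python 3.11.15.

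Named were called genes, up to 10 a direction, the 3 largest changes where fewer than 4 were called, fixed paralogs and fixed representatives. Ndufa13 by clone and Cilp2, the promoters shown and the genes of groups without overlap were chosen after their values were seen. The members and lists were chosen with earlier results of these data known. A WT replicate number marks a line that was used at every stage (CCE, CCB, CCH and CCF, per the labels), and residuals of 12 such pairs correlated between -0.263 and 0.46 (median -0.0304, 3 over 0.1). Alternatives were median scaling, no background correction, the deposited normalized values, other detection filters, another probe of a gene, group means fitted over all arrays, a replicate block, single arrays left out and the doubted libraries left out. A clone block and leaving out arrays with a probe over 30000 were added after seeing the data. Promoter motifs of NRF1 and YY1 were searched in a shortened form after a longer form had been searched. The scripts were tested on simulated data.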

Additional observations from a re-analysis of the deposited data

Results flagged for a closer look

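Among the 16 genes named for calls, each of the 9 groups of 4 arrays was searched for an array standing apart, 144 checks in all. An array was listed where its gap to the nearest other, divided by the range of the group, was above Dixon's 95% critical value for 4 values. This gave 10 arrays, and chance alone gives about 5% of checks.

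Ndufa11, an accessory subunit of complex I, was listed 3 times. It was 12.98 in d2 Smad2/3 DKO replicate 1 (nearest other 12.65), 12.44 in d3 Smad3 KO replicate 3 (nearest 12.66) and 12.77 in d3 WT replicate 1 (nearest 12.44). Ndufa13 was 13.61 in d3 WT replicate 4 (nearest 13.24). Ndufaf4 was 11.60 in d2 Smad3 KO replicate 4 (nearest 11.43).

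Of complex IV genes, Cox7a1 was 8.97 in d2 Smad3 KO replicate 2 (nearest 9.88), Cox6b2 was 9.35 in d3 Smad2 KO replicate 3 (nearest 8.89), and Cox6c was 11.20 in d3 Smad2 KO replicate 4, a doubted library (nearest 10.03). Of complex V genes, Atp5md was 5.30 in d3 Smad2/3 DKO replicate 4, the array of the lowest dim mean (nearest 6.72), and Atp5mpl was 13.06 in d2 Smad2/3 DKO replicate 2 (nearest 13.25).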

How the results depend on the processing

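Of 603 values of named genes under alternatives, 601 kept their direction and 562 also their side of the threshold. The 2 that turned were those of Atp5a1 by another tested probe, -0.10 in d3 WT EBs against WT ESCs and -0.31 in Smad2 KO against WT ESCs. Counts of called OXPHOS genes moved by over 1.5 times in some settings, and the cause was not tested. In d2 WT EBs against WT ESCs (5 genes) the count was 3 with the replicate block and 3 without arrays whose brightest probe was over 30000. In d3 WT EBs against WT ESCs (3) it was 10 with median scaling, 5 without background correction and 1 with the stricter filter. In d3 Smad2/3 DKO against WT EBs (1) it was 2 with median scaling, where the median of all genes was -0.22, 3 without background correction, 3 without a filter, 2 with 12 group means, 2 without the doubted libraries and 0 without arrays over 30000. For d2 Smad2/3 DKO against WT EBs (0) it was 1 with 12 group means. For d3 Smad3 KO against WT EBs (0) it was 1 with median scaling, with 12 group means and without the doubted libraries. For d3 Smad2/3 DKO against Smad2 KO EBs and for the stage changes (0 each) it was 1 without the doubted libraries. Over 12 groups (12) it was 6 with median scaling. Smaller moves took it to 17 without the doubted libraries, 17 without background correction, 16 without a filter and 10 with the replicate block.

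Leaving out 1 array gave 2 to 8 called genes for d2 and 2 to 6 for d3 WT EBs against WT ESCs, 1 to 2 for d3 Smad2/3 DKO against WT EBs, and 0 to 1 for d3 Smad3 KO against WT EBs (Ndufa13, without Smad3 KO replicate 1), for d3 Smad2/3 DKO against Smad2 KO EBs (Ndufaf4, without Smad2 KO replicate 4) and for the stage changes (Ndufaf4, without WT ESC replicate 1 or 3). The other pairwise comparisons stayed at 0. The replicate block rests on the WT line and moved no other count by over 1.5 times. Changes of dim genes near background are limited by signal.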
